A study of Homo sapiens with 6 samples.

Results

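Histone variants and linker histones are proteins of chromatin, and their transcripts were described here in MM.1S, a human myeloma line grown in culture. Multiple myeloma is a malignancy of antibody-secreting plasma cells. Genes were chosen by name. The rule named 9 genes, and 7 of them were analysed, out of 12760 genes with values: the linker histone genes HIST1H1C and H1FX, the H2A variant genes H2AFX, H2AFY, H2AFZ and H2AFV, and the H3.3 gene H3F3B. H1F0 and H3F3A were not analysed here. All 7 were among the 11276 genes averaging 1 FPKM or more over the 6 libraries (FPKM divide the fragments of a gene by its length in kilobases and by the size of the library). The LenR group held 3 libraries of cells selected with lenalidomide, at 10 nM to begin with and with a 10-fold higher dose each month for 3 months. The WT group held 3 libraries of cells kept in the solvent DMSO over the same time. Both groups are MM.1S cells in the same medium, and the genotype entered in the labels is WT for both, so no engineered allele is named. The groups differ by treatment over 3 months of selection, and genetic change acquired or selected over that time was not tested. Whether lenalidomide was present at harvest, and whether the LenR libraries come from separate selections, is not given in the sources used here. The p-values therefore measure the spread between these cultures.

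A nucleosome wraps DNA around a core of histones H2A, H2B, H3 and H4, and a linker histone (H1) binds where the DNA enters and leaves it. Canonical histones are made mainly in S phase from clustered genes whose mRNAs end in a stem-loop in place of a poly(A) tail. Variant histones are made from separate genes, mostly with polyadenylated mRNAs, and are exchanged into chromatin by their own chaperones: H2A.Z at promoters, H3.3 at active genes and heterochromatin, macroH2A on silent chromatin, and H2A.X, which is phosphorylated next to DNA breaks. HIST1H1C (H1.2) lies in the histone cluster on chromosome 6 but is expressed beyond S phase as well.

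Reads summed over the genes with values, worked out from whole multiples in the FPKM values, ranged from 14500140 to 17387914 per library. LenR and WT libraries parted along the first principal component (58.1% of the variance), and the next (26.8%) set LenR replicate 2 and WT replicate 3 apart from the other libraries. Markers of plasma cells were strong, with summed levels of 4057 to 4871 FPKM in LenR libraries and 3339 to 3904 FPKM in WT libraries. All 8 had log2 fold changes above 0 and 5 rose (CD38, PRDM1, SDC1, XBP1 and IRF4, of which SDC1, XBP1 and IRF4 are named after their values were seen). Over all genes tested, 5584 of 11276 lay above 0 and 8.57% were called higher. CD38 stayed called without any single library; the calls of the other 4 ended without WT replicate 1 (adjusted p up to 0.132 by limma) or WT replicate 2 (up to 0.118), those of SDC1 and XBP1 also without LenR replicate 1 (0.108 and 0.0674), that of SDC1 without LenR replicate 2 (0.0595) and that of XBP1 without WT replicate 3 (0.0509). Markers of T and NK cells summed to 2.72 to 2.96 FPKM in LenR and 3.05 to 3.64 FPKM in WT, with values for 2 of the 7. Those of epithelial and stromal cells stayed at or below 0.429 FPKM in LenR and 0.265 FPKM in WT, with values for 1 of the 6. Of the 5 erythroid markers 1 had values, at 5.55 to 8.31 FPKM in LenR and 5.83 to 7.11 FPKM in WT. None of the 6 myeloid markers had a value analysed here.

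HIST1H1C was the single gene of the 7 that was called between the groups: it was lower in LenR. The other 6 did not pass the test, and in 5 of them (all but H2AFY) the values of LenR and WT libraries overlapped. The test was limma's moderated test on log2(FPKM + 1), two-sided, with Benjamini-Hochberg adjustment over all 11276 genes and a threshold of 0.05. The 1 called gene is 14.3% of the 7. Among all genes tested, 15.1% were called, 6.57% lower and 8.57% higher, so the count for the histone genes lay near the background. By limma, 1 of the 7 was also at an unadjusted p under 0.05, against 28.7% of all genes tested. Values below 0 on the log2 fold change scale were found for 5 of the 7 (71.4%, against 50.5% of all genes tested), with a median of −0.08, against −0.002 over all genes.

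The stretches upstream of the linker histone genes HIST1H1C and H1FX are shown because these 2 genes of the same family gave different outcomes. The 250 bases before each RefSeq start (GRCh38.p14, minus strand) are chr6:26056471-26056720 for HIST1H1C and chr3:129316287-129316536 for H1FX, written 5′ to 3′. Capitals mark the letters searched on both strands: CCAAT, a common promoter element bound by NF-Y, then TATAAA, an element close to the start of some genes, and last AAACACA, the H1 box known from promoters of linker histone genes.
HIST1H1C: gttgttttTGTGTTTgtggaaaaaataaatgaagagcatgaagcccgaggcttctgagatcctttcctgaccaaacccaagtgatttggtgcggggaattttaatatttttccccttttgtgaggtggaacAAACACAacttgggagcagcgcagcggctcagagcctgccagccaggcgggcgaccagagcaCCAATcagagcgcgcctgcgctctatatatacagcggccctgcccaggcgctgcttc
H1FX: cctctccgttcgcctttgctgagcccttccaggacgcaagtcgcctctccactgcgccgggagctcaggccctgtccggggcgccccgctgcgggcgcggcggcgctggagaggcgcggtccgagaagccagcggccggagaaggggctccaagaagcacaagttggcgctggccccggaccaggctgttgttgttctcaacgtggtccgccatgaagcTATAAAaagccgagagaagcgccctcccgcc
HIST1H1C held the H1 box letters on both strands and CCAAT, and H1FX held TATAAA. The HIST1H1C window lacks the exact letters TATAAA but holds the similar run tatatata near its end. That run was not searched for, so the marks do not set the 2 genes apart by such an element. All 7 genes had an upstream window in the RefSeq table. The H1 box letters occurred in the windows of HIST1H1C alone among the 7 genes and in 4.82% of all 35116 windows of this length. CCAAT occurred in those of 6 of the 7 genes and in 32% of all windows, and TATAAA in those of 4 of the 7 and in 10.7% of all. A match is a description of letters and not evidence of a bound factor.

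Of the linker histones, HIST1H1C encodes H1.2, a widely expressed somatic subtype, and lies on chromosome 6 from 26055787 to 26056428 (GRCh38, GENCODE 29). It measured 2.81, 2.85 and 3.20 FPKM in LenR replicates 1 to 3, against 5.76, 3.96 and 4.95 FPKM in WT replicates 1 to 3. All LenR libraries lay below all WT libraries. The means were 2.95 ± 0.216 FPKM in LenR and 4.89 ± 0.905 FPKM in WT (SD, n = 3 each), a level 39.6% lower in LenR. The log2 fold change was −0.56 (SE 0.11, 95% interval −0.83 to −0.30, adjusted p = 0.014 by limma). Adding 1 before taking logs shrinks the change of so low a gene: with 0.1 added the log2 fold change was −0.69.

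The depth behind this gene was low, since it was the least expressed of the 7 and ranked 8899 of 11276 by mean level. Its FPKM values stand for 30, 33 and 41 reads in LenR replicates 1 to 3 and 74, 48 and 53 reads in WT replicates 1 to 3, or 104 reads in LenR and 175 in WT. The exact Poisson 95% intervals cover counting error only. The lowest library of each group had 1.90 to 4.02 FPKM (LenR replicate 1) and 2.92 to 5.24 FPKM (WT replicate 2), which overlap. LenR replicates 2 and 3 reached up to 4.00 and 4.35 FPKM, and the interval of WT replicate 3 began at 3.71 FPKM. The interval of each LenR library thus overlapped those of WT replicates 2 and 3. That of WT replicate 1 began at 4.52 FPKM, above all LenR intervals. The call ended without LenR replicate 1 (log2 fold change −0.54, adjusted p = 0.071). It also ended without both LenR replicate 2 and WT replicate 3 (−0.53, adjusted p = 0.0609). Between LenR replicate 2 and WT replicate 3 alone the difference was −0.63.

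HIST1H1C had a lower log2 fold change than its surroundings. Of the 44 other tested genes within 5 Mb of it, none had a lower log2 fold change than its own, and their median was 0.04. Of these neighbours 1 was called lower and 5 higher. The other histone genes of the cluster type with values were low as well: HIST1H2AC averaged 2.62 ± 0.531 FPKM in LenR and 2.47 ± 0.317 FPKM in WT, and HIST1H2BK 4.76 ± 1.35 FPKM in LenR and 4.22 ± 0.363 FPKM in WT (SD, n = 3 each). Neither passed by limma (log2 fold changes 0.06 and 0.11, adjusted p = 0.813 and 0.723). HIST2H2BE, at 0.69 FPKM in LenR and 0.757 FPKM in WT, lay under the filter. How mRNA was captured for these libraries is not given in the sources used here, and how far mRNAs without a poly(A) tail are represented was not tested. The genes with the most similar pattern over the 6 libraries, by Pearson correlation of log2 values among 8310 genes averaging 5 FPKM or more, were ZNF761 (0.972), ATP6V1H (0.971) and TMEM184C (0.970). These correlations are the 3 highest of 8310, each over 6 libraries, and were not tested. None of these 3 genes passed the test between the groups by limma (adjusted p = 0.229, 0.0818 and 0.164).

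H1FX encodes H1.10, a linker histone made independently of replication, and lies on chromosome 3 from 129314771 to 129316277. It measured 239, 236 and 163 FPKM in LenR replicates 1 to 3, against 178, 195 and 230 FPKM in WT replicates 1 to 3. The groups overlapped, and LenR replicate 3 held the lowest value of all 6 libraries. LenR exceeded WT by 0.07 on the log2 scale (SE 0.17, 95% interval −0.31 to 0.45, adjusted p = 0.834 by limma), so differences of up to 1.37-fold higher or down to 0.805 of the WT level on this scale fall within the interval. The sign turned without LenR replicate 1 (−0.023), LenR replicate 2 (−0.015) or WT replicate 1 (−0.013).

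The antisense gene H1FX-AS1, named after its values were seen, runs over the start of H1FX on the opposite strand and shares 886 bases with its locus (chromosome 3, 129315392 to 129316277). It measured 14.8, 12.5 and 13.1 FPKM in LenR replicates 1 to 3, against 9.02, 9.02 and 8.14 FPKM in WT replicates 1 to 3, with no overlap. H1FX-AS1 rose (0.57 on the log2 scale, SE 0.081, adjusted p = 0.00261 by limma), and the call held without any single library (adjusted p up to 0.012). The strand setting of the counting is not given in the sources used here, and without it reads from H1FX and its antisense partner cannot be told apart. In the linker histone group, H1FX was the stronger gene in every library, and HIST1H1C made up 0.209% of the summed FPKM of the 7 genes in LenR and 0.353% in WT, whereas H1FX made up 15.1% in LenR and 14.5% in WT.

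**Figure D1:**
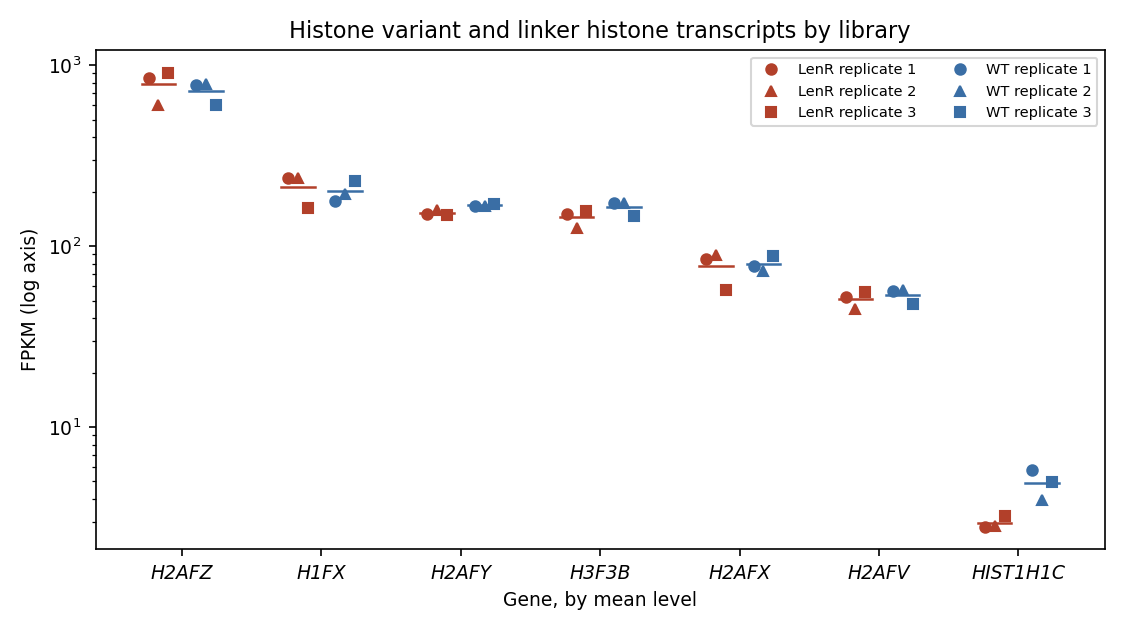
FPKM (log axis) of the 7 genes in each library, ordered by mean level, with LenR in red left of WT in blue, 1 symbol shape per replicate number and a bar at each group mean. HIST1H1C sits between 2.81 and 3.20 FPKM in LenR and between 3.96 and 5.76 FPKM in WT; in the other genes apart from H2AFY the groups overlap.

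Among the H2A variants, H2AFZ and H2AFV both encode H2A.Z, the variant that the SRCAP and p400 complexes place at promoters and enhancers, and their proteins (H2A.Z.1 and H2A.Z.2) are nearly identical. H2AFZ, on chromosome 4 from 99948086 to 99950388, was the strongest of the 7 genes and ranked 38 of 11276. It measured 845, 603 and 905 FPKM in LenR replicates 1 to 3, against 776, 790 and 602 FPKM in WT replicates 1 to 3. LenR replicate 2 and WT replicate 3 were the low libraries, at almost the same level, and the groups overlapped. On the log2 scale LenR lay 0.11 above WT (SE 0.18, 95% interval −0.31 to 0.52, adjusted p = 0.762 by limma). It was −0.008 without LenR replicate 3 and −0.02 without WT replicate 3. Without both LenR replicate 2 and WT replicate 3 it was 0.16 (adjusted p = 0.0967).

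H2AFV lies on chromosome 7 from 44826791 to 44848083, and its FPKM rest on a longer gene model (4704 bases, against 947 for H2AFZ). It measured 52.5, 44.7 and 55.5 FPKM in LenR replicates 1 to 3, against 56.3, 57.3 and 47.8 FPKM in WT replicates 1 to 3, with overlapping groups. The same 2 libraries as for H2AFZ were the low ones. The log2 fold change was −0.08 (SE 0.11, 95% interval −0.33 to 0.17, adjusted p = 0.688 by limma), and 0.008 without LenR replicate 2. Its 37 neighbours within 5 Mb had a median of 0.001.

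Together the H2A.Z transcripts summed to 835 ± 165 FPKM in LenR and 777 ± 110 FPKM in WT (SD, n = 3 each; exact two-sided permutation test, p = 0.6, where 3 against 3 libraries cannot give less than 0.1). The difference of 58.2 FPKM became −4.35 FPKM without LenR replicate 3 and −4.97 FPKM without WT replicate 3. H2AFV supplied 6.18% ± 0.629 of this sum in LenR and 6.96% ± 0.341 in WT (SD, n = 3 each; exact permutation p = 0.3). In LenR its share was 5.85%, 6.90% and 5.78%, and in WT 6.76%, 6.76% and 7.35%, so the ranges overlapped through LenR replicate 2. These shares rest on the gene lengths used. In summed reads H2AFV held 11486 against 35674 for H2AFZ in LenR, and 12402 against 33639 in WT. GENCODE 29 lists 6 pseudogenes named for H2AFZ and 1 for H2AFV, and how reads matching several of these loci were counted is not given in the sources used here.

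H2AFY encodes macroH2A1, an H2A variant with a large extra domain found on silent chromatin, and lies on chromosome 5 from 135333900 to 135399914. It measured 151, 157 and 149 FPKM in LenR replicates 1 to 3, against 166, 166 and 172 FPKM in WT replicates 1 to 3. Every LenR value lay below every WT value, with group means of 152 ± 4.42 FPKM in LenR and 168 ± 3.28 FPKM in WT (SD, n = 3 each). Its log2 fold change was −0.14 (SE 0.07, 95% interval −0.30 to 0.02) and did not pass (adjusted p = 0.235 by limma). Its spread was the smallest of the 7, with a coefficient of variation of 2.9% in LenR and 1.95% in WT, against medians of 8.78% in LenR and 6.66% in WT over the 2103 genes averaging 40 FPKM or more.

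Non-overlapping groups were found for 2 of the 7 genes, H2AFY and HIST1H1C (28.6%), against 34.5% of all genes tested. Over the alternatives run, the log2 fold change of H2AFY stayed between −0.16 and −0.11, with adjusted p from 0.0538, when each library's trend over GC content was removed, to 0.605. Its 65 neighbours within 5 Mb had a median of 0.01. The gene C5orf66 overlaps the H2AFY locus on the opposite strand and gave −0.03 on the log2 scale (adjusted p = 0.854 by limma; named after its values were seen).

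H2AFX encodes H2A.X, whose tail is phosphorylated by ATM, ATR and DNA-PK next to double-strand breaks, and lies on chromosome 11 from 119093854 to 119095467. It measured 84.3, 89.7 and 57.5 FPKM in LenR replicates 1 to 3, against 77.7, 72.4 and 88.4 FPKM in WT replicates 1 to 3. LenR replicate 3 was the lowest library and LenR replicate 2 the highest, so the LenR values enclosed those of WT. For H2AFX the log2 fold change was −0.06 (SE 0.17, 95% interval −0.45 to 0.32, adjusted p = 0.855 by limma). It was 0.13 without LenR replicate 3 and 0.02 without WT replicate 3.

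H3F3B is 1 of the pair of genes that encode H3.3, the replacement form of histone H3 put in place by HIRA and by DAXX with ATRX, and lies on chromosome 17 from 75776434 to 75785893. It measured 151, 126 and 157 FPKM in LenR replicates 1 to 3, against 172, 172 and 147 FPKM in WT replicates 1 to 3. The groups overlapped because WT replicate 3 lay below LenR replicates 1 and 3. For H3F3B the log2 fold change was −0.18 (SE 0.11, 95% interval −0.43 to 0.07, adjusted p = 0.332 by limma), and stayed below 0 without any single library (−0.25 to −0.09). As a share of the summed FPKM of the 7 genes, H3F3B took 10.1% ± 0.33 in LenR and 11.7% ± 0.319 in WT (SD, n = 3 each). These shares did not overlap (exact two-sided permutation p = 0.1, the smallest that 3 against 3 can give). The share of HIST1H1C gave the same p, and those of the remaining genes gave larger ones. Among single genes, 34.5% of all tested had no overlap. H2AFZ made up 54.7% of the sum in LenR and 51.7% in WT. Like H3F3B, it was lowest in LenR replicate 2 and WT replicate 3 of their groups, so the share of H3F3B depends on H2AFZ as well. Values for the other H3.3 gene were not analysed here, so H3F3B is not the whole H3.3 message. H3F3AP4 is a processed pseudogene of that other gene and was named after its values were seen. It measured 9.76, 10.1 and 14.2 FPKM in LenR replicates 1 to 3. WT replicates 1 to 3 gave 14.8, 14.7 and 10.1 FPKM, and H3F3AP4 did not pass (−0.20, adjusted p = 0.509 by limma). The gene UNK, also named after its values were seen, overlaps the H3F3B locus by 1123 bases on the opposite strand. GENCODE 29 lists 2 pseudogenes named for H3F3B. How far reads of these loci and of parent genes mix was not tested.

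**Figure D2:**
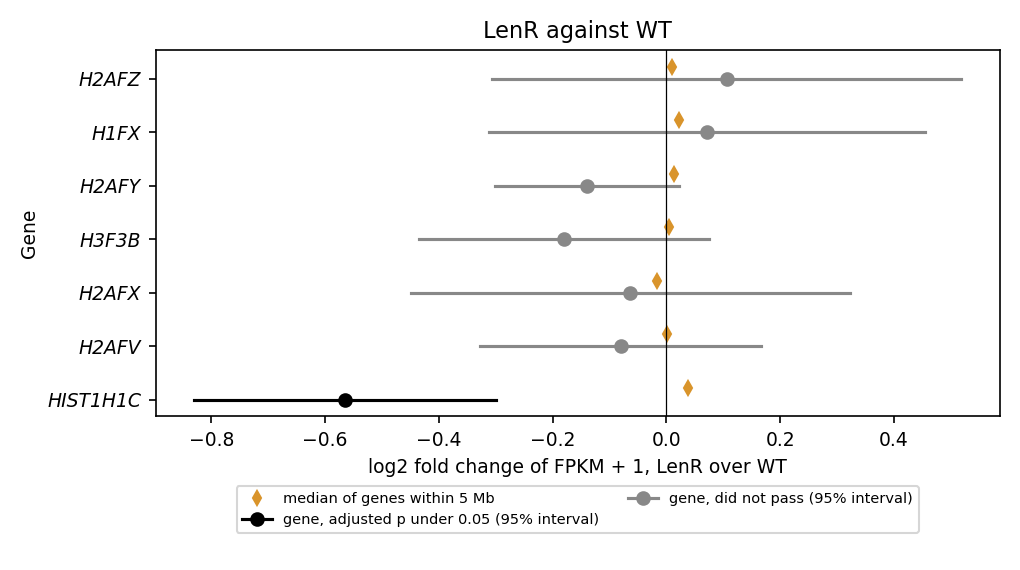
Log2 fold change of FPKM + 1 (LenR over WT) of each gene with its 95% interval (black where adjusted p was under 0.05, grey where the gene did not pass) and the median of the other genes within 5 Mb (orange diamond). HIST1H1C lies at −0.56 while its neighbours have a median of 0.04; the intervals of the other 6 genes include 0, and the neighbour medians lie between −0.02 and 0.04.

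The order of the levels, which are divided by gene length, was H2AFZ, H1FX, H2AFY, H3F3B, H2AFX, H2AFV and HIST1H1C. Effects of the gene model, of GC content and of pseudogenes on this order were not tested. H2AFZ averaged 754 FPKM over the 6 libraries, 3.64 times H1FX. H2AFY and H3F3B could not be ordered, since H2AFY was the higher in 3 of 6 libraries. H1FX was above H2AFY in 6 of 6 libraries, although their ranges over libraries overlapped. H2AFX and H2AFV came close, with a lowest H2AFX value of 57.5 FPKM and a highest H2AFV value of 57.3 FPKM. The 7 genes summed to 1425 ± 144 FPKM in LenR and 1393 ± 88.6 FPKM in WT (SD, n = 3 each; exact permutation p = 0.6), and the difference of 31.4 FPKM became −18.9 FPKM without LenR replicate 1, −0.896 FPKM without LenR replicate 3 and −19.3 FPKM without WT replicate 3. In bulk RNA, fewer cells with a transcript and less transcript per cell cannot be told apart.

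Within the groups, 6 of the 7 genes showed 1 of 2 patterns across libraries. H2AFZ, H2AFV and H3F3B were lowest in LenR replicate 2 among LenR libraries and lowest in WT replicate 3 among WT libraries. H1FX, H2AFX and, over a narrower range, H2AFY were lowest in LenR replicate 3 among LenR libraries and highest in WT replicate 3 among WT libraries. HIST1H1C showed neither pattern. HIST1H1C and H2AFY lay below their mean in all LenR libraries and above it in all WT libraries. LenR replicate 3 deviated from the mean of the 6 libraries by −0.32 for H1FX, −0.42 for H2AFX and 0.28 for H2AFZ on the log2 scale. LenR replicate 2 and WT replicate 3 are the libraries set apart by the second principal component, and LenR replicate 3 lay at its opposite end.

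The transcripts of H1FX and H2AFX were the richest in G and C of the 7 (68.6% and 66.9%), and those of H2AFZ and H2AFV the poorest (48.4% and 48.7%). Over all genes, log2 levels rose with GC content in LenR replicates 1 and 2 and WT replicate 3 (0.08, 0.07 and 0.07 per 10 percentage points) and fell in LenR replicate 3 and WT replicates 1 and 2 (−0.08, −0.07 and −0.07). With each library's GC trend removed, the SE of H1FX was 0.08 against 0.17 before, and that of H2AFX 0.09 against 0.17. Their log2 fold changes were then −0.05 (adjusted p = 0.68 by limma) and −0.18 (adjusted p = 0.213). The SE of H2AFZ stayed at 0.17 against 0.18, and HIST1H1C still fell (−0.60, adjusted p = 0.0148).

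**Figure D3:**
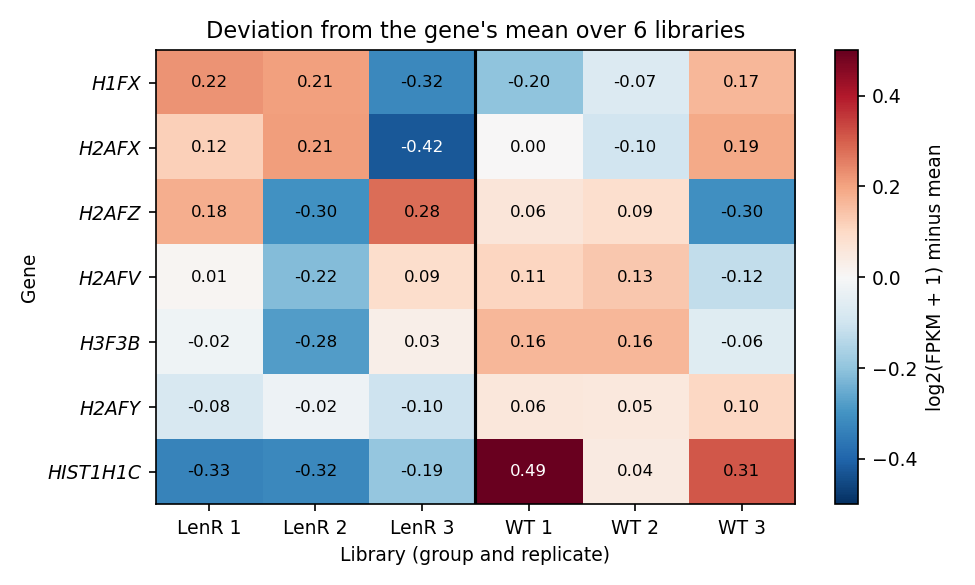
Deviation of log2(FPKM + 1) from the gene's own mean over 6 libraries, with LenR libraries left of WT libraries and red above the mean. H1FX and H2AFX are low in LenR replicate 3 (−0.32 and −0.42), H2AFZ is low in LenR replicate 2 and WT replicate 3 (−0.30 each), and HIST1H1C is below its mean in all LenR libraries and above it in all WT libraries.

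Some genes of the machinery that handles these histones passed the test, and no list was tested as a set. Neighbouring genes were examined for the 7 histone genes only. Whether called genes of the lists shifted together with their chromosome region was not tested. Among these genes, CBX3 lies on chromosome 7, LSM11 on chromosome 5, PTMA on chromosome 2 and TONSL on chromosome 8. Over all genes tested, 15.1% were called, 6.57% lower and 8.57% higher. Of 7 tested genes that deposit H3.3, 1 fell and none rose (median log2 fold change −0.09, against −0.002 over all genes). The gene that fell was DEK, a chromatin protein that chaperones H3.3, at 46.1 ± 2.2 FPKM in LenR and 63.6 ± 5.84 FPKM in WT (SD, n = 3 each; −0.45, adjusted p = 0.0108 by limma). Leaving out WT replicate 1 (adjusted p = 0.0585) or WT replicate 2 (0.0565) ended that call. HIRA (0.14, adjusted p = 0.446), ASF1A (−0.09, adjusted p = 0.556) and ATRX (−0.14, adjusted p = 0.283) did not pass by limma, and DAXX, at 0.286 FPKM in LenR and 0.34 FPKM in WT, lay under the filter. Of 21 tested genes of the H2A.Z exchange complexes, 1 fell, none rose and 3 were at an unadjusted p under 0.05 (28.7% of all genes were; median −0.02). INO80C, a subunit of the INO80 remodeller, fell to 5.32 ± 1.11 FPKM in LenR, against 11.2 ± 1.95 FPKM in WT (SD, n = 3 each; −0.95, adjusted p = 0.00517 by limma), and held without any single library. The catalytic subunits SRCAP (−0.02) and EP400 (0.25) and the H2A.Z-removing chaperone ANP32E (0.01) did not pass (adjusted p = 0.956, 0.21 and 0.986 by limma).

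Of 16 partners of macroH2A and linker histones, 4 fell and none rose (median −0.08); over all genes 6.57% were called lower. CBX3, which encodes the heterochromatin protein HP1 gamma, fell to 63 ± 10.6 FPKM in LenR, against 107 ± 15.8 FPKM in WT (SD, n = 3 each; −0.76, adjusted p = 0.0119 by limma). HMGN2, a nucleosome-binding protein that competes with H1, fell as well (−0.43, adjusted p = 0.0366). The other 2, named after their values were seen, were PTMA (prothymosin alpha, which binds H1; −0.42) and the DNA-bending protein HMGB2 (−0.32). These calls ended without WT replicate 1 (adjusted p from 0.05 for CBX3 to 0.18 for HMGB2) and without LenR replicate 1 (0.0568 to 0.119), and those of HMGN2, PTMA and HMGB2 also without WT replicate 2 (0.101 to 0.172). The calls of HMGN2 and HMGB2 ended without LenR replicate 2 (0.0687 and 0.0799), and that of HMGB2 without WT replicate 3 (0.0569).

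Of 15 genes of histone mRNA processing and histone gene transcription, 2 fell and none rose (median −0.06). Over all genes tested, 6.57% were called lower. LSM11, a protein of the U7 particle that cuts histone pre-mRNA (named after its value was seen), fell to 1.65 ± 0.165 FPKM in LenR, against 3.06 ± 0.258 FPKM in WT (SD, n = 3 each; −0.62, adjusted p = 0.00183 by limma), and held without any single library. XRN1, an exonuclease of mRNA decay, fell (−0.26, adjusted p = 0.048), but its call held only without WT replicate 3 (adjusted p up to 0.18 otherwise). SLBP, which binds the histone stem-loop, and NPAT, the activator of the clustered histone genes, did not pass (−0.04 and −0.004, adjusted p = 0.791 and 0.981 by limma). Of 15 genes that phosphorylate, read or reset H2A.X, 2 rose and none fell (median 0.001, with 8.57% of all genes called higher). They were ATM, a kinase of H2A.X (0.27, adjusted p = 0.0383 by limma), and EYA3, a phosphatase of H2A.X (0.28, adjusted p = 0.0257). Leaving out any 1 library ended the call of ATM (adjusted p up to 0.116), while EYA3 stayed called only without WT replicate 3 or LenR replicate 1 (up to 0.123 otherwise).

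Of 15 chaperones tied to replication, 1 rose and none fell (median −0.03, with 8.57% of all genes called higher). This was TONSL, a reader of newly placed histone H4 (0.56, adjusted p = 0.026 by limma), whose call held only without WT replicate 3 or LenR replicate 3 (adjusted p up to 0.11 otherwise). CHAF1A, the large subunit of CAF-1, did not pass (−0.03, adjusted p = 0.887 by limma). Of the other variant genes with values, CENPA, the centromeric H3, averaged 16.3 ± 1.47 FPKM in LenR and 18.2 ± 1.02 FPKM in WT and did not pass (SD, n = 3 each; −0.15, adjusted p = 0.27 by limma). H2AFJ, which encodes an H2A variant named H2A.J, rose to 2.94 ± 0.639 FPKM in LenR, against 1.8 ± 0.304 FPKM in WT (SD, n = 3 each; 0.48, adjusted p = 0.0488 by limma). The call of H2AFJ held only without LenR replicate 2 (adjusted p up to 0.168 otherwise). H2AFY2 was not analysed here.

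Some cell cycle genes also fell, where 6.57% of all genes tested were called lower. Of 18 S phase genes, 3 fell and none rose (median −0.07), with 5 at an unadjusted p under 0.05 (28.7% of all genes were). RRM2, a subunit of ribonucleotide reductase, fell to 238 ± 13.1 FPKM in LenR, against 316 ± 16.9 FPKM in WT (SD, n = 3 each; −0.41, adjusted p = 0.0154 by limma), and CDC6, which loads the replicative helicase, fell as well (−0.28, adjusted p = 0.0244), a call that held only without LenR replicate 3 or WT replicate 3 (up to 0.126 otherwise). The third was CCNE1 (cyclin E1; −0.24, adjusted p = 0.038 by limma; named after its value was seen), whose call ended without any 1 library (adjusted p up to 0.172). Of 13 genes of G2 and mitosis, 2 fell (TOP2A, −0.35, and MKI67, −0.50), 10 were at an unadjusted p under 0.05, all 13 lay below 0 and the median was −0.20. The calls of RRM2 and TOP2A ended without WT replicate 1 (adjusted p = 0.0933 and 0.105), WT replicate 2 (0.0838 and 0.0895) or LenR replicate 1 (0.06 and 0.063), and that of MKI67 held only without LenR replicate 2 (up to 0.173 otherwise). The 13 genes of G2 and mitosis summed to 672 to 708 FPKM in LenR and 815 to 835 FPKM in WT. The part of this difference in the fall of HIST1H1C was not tested.

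**Figure D4:**
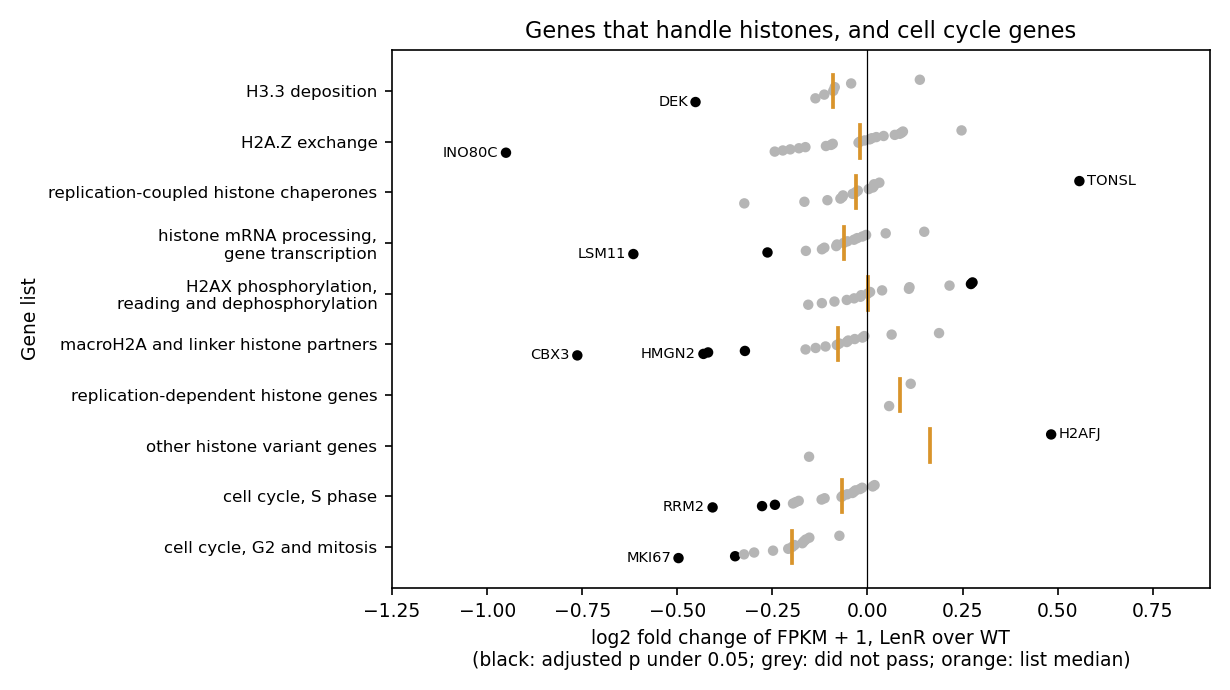
Log2 fold change of FPKM + 1 (LenR over WT) of each tested gene of the 10 lists, 1 point per gene, black where adjusted p was under 0.05 and grey where it did not pass, with each list's median as an orange bar. INO80C lies at −0.95 and CBX3 at −0.76 on the lower side and TONSL at 0.56 on the higher side, while the medians of the lists lie between −0.20 and 0.16.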

How the data were processed

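The authors deposited 1 table of FPKM values with a column per library, assigned here through the column names in the labels. The submitters' processing notes name the build hg38 and the tools edgeR 3.40.2, featureCounts 2.0.3, HISAT2 2.2.1 and FastQC 0.11.9, with no role or order. Not given in the sources used here are the annotation, the expression filter and the strand setting. Whole reads and gene lengths were worked out from the steps in each gene's values (all 12760 genes within 0.03 of a read, 119 after multiplication by a common factor).

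Log2(FPKM + 1) of genes averaging 1 FPKM or more was fitted with limma 3.58.1 (R 4.3.3; group only, empirical Bayes with a trend). Each SD is over 3 libraries. Positions and GC content came from GENCODE 29 (94.1% of genes) and upstream sequences from RefSeq. Single values were tested by exact permutation (scipy 1.17.1). Figures used matplotlib 3.10.9.

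The genes described and the lists were chosen with earlier results of these data known. Named genes were the 7 histone genes, up to 2 called genes in each direction per list with a mean of at least 5 FPKM, 14 genes fixed by name, and the 3 most similar to each called histone gene. Alternatives covered a replicate block, pseudocount, filter, scaling, variance model, voom on the reads, averaging WT replicates 1 and 2, and leaving out each library. GC correction and leaving out LenR replicate 2 with WT replicate 3 were chosen after seeing the data. On simulated data for this comparison (11231 genes), the test called 10% of genes changed 1.25-fold, 68% at 1.5-fold, 88% at 2-fold and 100% at 3-fold, plus 11 unchanged genes. The planned H3.3 sum and H3F3A share were not computed, since H3F3A was not analysed here.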

Additional observations from a re-analysis of the deposited data

How the results depend on the processing

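HIST1H1C kept its direction in all 16 alternatives run (log2 fold change −0.70 to −0.46). Its call ended without LenR replicate 1 (0 of the 7 genes called, against 1), and the range with 1 library left out was −0.68 to −0.46 (0 to 1 genes called). It also ended without both LenR replicate 2 and WT replicate 3 (−0.53, 0 called, with fewer samples), and at a mean of at least 5 FPKM it was not tested (0 called). None of the other 6 was called in any alternative. With 1 library left out, H1FX ranged from −0.023 to 0.25, H2AFZ from −0.020 to 0.28, H2AFX from −0.18 to 0.13 and H2AFV from −0.16 to 0.0083, the H2A.Z sum differed by −4.97 to 152 FPKM and the sum of the 7 genes by −19.3 to 114 FPKM. H1FX was −0.055 with the GC trend removed. Over all genes 1707 were called, 1075 at a mean of at least 5 FPKM (fewer genes tested), 1055 with WT replicates 1 and 2 averaged (fewer samples), 1822 without both LenR replicate 2 and WT replicate 3, 2428 with the GC trend removed, 1007 to 1562 with 1 library left out and 907 under a replicate block; other causes were not tested. Same-numbered libraries were not the most alike: their deviations correlated at 0.02, −0.56 and −0.68, and LenR and WT libraries did not correlate best with their own number. The highest correlation was that of LenR replicate 2 with WT replicate 3 (0.69). Such correlations cannot show whether same-numbered cultures were handled together. Under the replicate block HIST1H1C stayed called (adjusted p = 0.0271 by limma), as it did with WT replicates 1 and 2 averaged (0.00671). Alternatives for the H3.3 sum and the H3F3A share were not run. Depth limits the precision of HIST1H1C, with 30 to 74 reads per library.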
